A study of Mus musculus with 28 samples.

Results

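The 31 genes described here encode enzymes and regulators of cholesterol and fatty acid synthesis. They comprise 18 enzymes of the sterol pathway, 5 regulators and carriers of sterols, and 8 genes of fatty acid synthesis and desaturation. They were chosen by gene name, with earlier results of these data known. All 31 of them had a p-value in each of the 7 comparison tables of 22919 genes that the authors deposited. Nascent RNA was measured by Bru-seq: RNA made during a brief pulse of bromouridine carries the modified base, is pulled down by an antibody to it and sequenced, and the reads thus measure ongoing transcription. The cultures came from the forebrain of CD1 mouse embryos at embryonic day 18, and the labels list neurons, astrocytes and precursors of oligodendrocytes among their cells. Lentivirus that carried either a control hairpin (shCtrl) or a hairpin directed at Rai1 (shRai1) was added on day 14 in vitro. On day 17, the cultures received for 4 h either water as the vehicle, 1 µM tetrodotoxin (TTX), which blocks sodium channels and silences firing, or 20 µM bicuculline methiodide (BIC), which blocks inhibitory GABA receptors and raises network activity. Bromouridine at 2 mM was present for the last 20 min. In the control arm, shCtrl with vehicle had 2 libraries, shCtrl with TTX had 3 and shCtrl with BIC had 2. In the knockdown arm, shRai1 with vehicle, TTX and BIC had 3 libraries each. All groups carried a lentivirus, so no group shows uninfected cells, and nothing in the labels says whether the libraries of a group came from separate dissections, so p-values measure the spread between these libraries.

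Cholesterol is built from acetyl-CoA through mevalonate, isoprenoid diphosphates and squalene, which is closed into the first sterol, lanosterol, and trimmed in many steps to cholesterol. The pathway is controlled mainly at transcription: when sterols in the endoplasmic reticulum run low, SCAP carries the SREBP factors to the Golgi, where they are cut and released to switch on the genes of sterol and fatty acid synthesis, while INSIG proteins hold SCAP back when sterols are plentiful. Brain cells make their own cholesterol because lipoproteins of the blood do not cross the blood-brain barrier, and the lipid serves membranes, synapses and myelin.

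Promoter sequences are shown for the 4 enzymes with the largest falls under TTX averaged over both arms, and for the 4 enzymes that were called under TTX in neither arm, so that the letters before their starts can be set side by side. Promoters of 24 of the 31 genes were taken from RefSeq annotation of GRCm38.p6. Those of Sqle, Fdps, Fdft1, Stard4, Fads1, Scd1 and Scd2 were not analysed here. Each line holds the 150 bases before a gene's start, 5′ to 3′ on the gene's strand. Capitals mark the CCAAT box, written ATTGG where it lies on the other strand, and matches to the sterol response element TCACNCCAC of SREBP factors with at most 1 mismatch on either strand. The windows are chr5:4104698-4104847 on the minus strand for Cyp51, chr1:169969206-169969355 on the minus strand for Hsd17b7, chr13:8885456-8885605 on the plus strand for Idi1 and chr13:119690201-119690350 on the plus strand for Hmgcs1. Those of the uncalled enzymes are chr13:14063489-14063638 for Ggps1, chr19:6067851-6068000 for Tm7sf2 and chrX:8193513-8193662 for Ebp, all on the minus strand. Dhcr7 has 3 annotated starts on the plus strand, with the windows chr7:143823017-143823166, chr7:143823249-143823398 and chr7:143830064-143830213, in this order below.
Cyp51: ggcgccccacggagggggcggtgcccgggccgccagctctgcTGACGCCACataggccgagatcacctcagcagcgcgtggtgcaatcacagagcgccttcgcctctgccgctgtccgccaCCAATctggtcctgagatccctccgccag
Hsd17b7: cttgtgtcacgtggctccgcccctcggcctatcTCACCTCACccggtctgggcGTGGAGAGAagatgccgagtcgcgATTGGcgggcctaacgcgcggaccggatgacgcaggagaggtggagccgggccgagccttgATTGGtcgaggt
Idi1: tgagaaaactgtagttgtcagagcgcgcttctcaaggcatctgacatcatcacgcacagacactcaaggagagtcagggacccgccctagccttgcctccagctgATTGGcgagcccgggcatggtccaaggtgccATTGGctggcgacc
Hmgcs1: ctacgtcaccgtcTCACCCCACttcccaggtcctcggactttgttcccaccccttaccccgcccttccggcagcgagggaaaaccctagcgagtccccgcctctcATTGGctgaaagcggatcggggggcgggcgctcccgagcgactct
Ggps1: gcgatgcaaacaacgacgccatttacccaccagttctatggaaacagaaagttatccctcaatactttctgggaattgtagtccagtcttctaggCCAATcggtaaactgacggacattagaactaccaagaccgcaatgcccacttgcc
Tm7sf2: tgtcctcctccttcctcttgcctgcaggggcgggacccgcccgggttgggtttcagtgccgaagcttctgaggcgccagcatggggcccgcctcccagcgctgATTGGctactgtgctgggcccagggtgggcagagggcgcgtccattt
Ebp: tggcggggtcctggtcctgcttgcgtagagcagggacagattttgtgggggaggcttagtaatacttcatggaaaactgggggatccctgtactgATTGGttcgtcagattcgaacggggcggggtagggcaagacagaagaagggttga
Dhcr7, first start: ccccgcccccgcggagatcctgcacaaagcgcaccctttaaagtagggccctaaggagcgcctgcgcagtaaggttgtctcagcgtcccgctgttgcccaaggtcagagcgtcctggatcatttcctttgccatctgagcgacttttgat
Dhcr7, second start: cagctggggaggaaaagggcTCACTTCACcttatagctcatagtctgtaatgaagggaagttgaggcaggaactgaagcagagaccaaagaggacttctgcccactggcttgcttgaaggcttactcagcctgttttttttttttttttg
Dhcr7, last start: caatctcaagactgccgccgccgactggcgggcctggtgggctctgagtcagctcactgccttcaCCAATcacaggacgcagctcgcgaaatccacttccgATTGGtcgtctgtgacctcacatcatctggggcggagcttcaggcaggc
Each of the 8 genes had a CCAAT box in a window shown, whether or not it was called under TTX, for Dhcr7 at its last start. An exact match to the sterol response element stood in the Hmgcs1 window, 137 bases before the start. Matches with 1 mismatch stood in those of Cyp51 and Hsd17b7 and at the second start of Dhcr7, so they were found among genes that fell under TTX and among uncalled genes. No match stood in the windows of Idi1, Ggps1, Tm7sf2 and Ebp.

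Over the full 300 bases of each RefSeq promoter, from 250 before to 50 after the start, a CCAAT box was present in 17 of the 19 sterol genes with a promoter (89.5%), against 41.1% of all 27025 genes and 42.6% of the 8151 genes with a mean normalised count of at least 100. It was present in 2 of the 5 fatty acid genes with a promoter, Acly and Fasn. The GC box GGGCGG was present in 17 of the 19 sterol genes, against 38.2% of all genes, but 71.4% of the genes with a count of at least 100 held it too. The exact element TCACNCCAC was found in 1 of the 24 genes, Hmgcs1, against 1.44% of all genes. With 1 mismatch allowed it was found in 9 of 19 sterol genes (47.4%), against 26.7% of all genes and 29.2% of those with a count of at least 100. These are matches of letters in a fixed window and carry no test.

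The deposited tables give a mean normalised count over all libraries for each gene, and no values per library, so the spread between libraries enters here only through the authors' standard errors. The 31 genes had mean normalised counts between 102 (Tm7sf2) and 4875 (Scd2), with a median of 892, against a median of 107 over the 21192 genes with a test. Because the genes lay above most others, most shares over all genes are given below also for genes with a mean normalised count of at least 100. The nascent RNA of Rai1 differed between the arms by 0.16 ± 0.07 (log2 ± SE) in vehicle, by -0.12 ± 0.06 in TTX and by 0.03 ± 0.07 in BIC in the authors' deposited tables, with adjusted p (DESeq2) of 0.357, 1 and 1. An shRNA acts on finished transcripts, so these values do not check the arm labels. Summed over 14 neuron markers, the authors' pooled FPKM in shCtrl was 894 in vehicle, 807 in TTX and 820 in BIC, and over 12 astrocyte markers it was 542, 446 and 421. Over 12 markers of the oligodendrocyte lineage it was 211, 186 and 210, and over 10 microglia markers 28.0, 26.8 and 35.7, with no marker of any list at 0. In such mixed cultures fewer cells of a type and less transcription per cell cannot be told apart.

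Levels per gene length were read from the authors' table of FPKM, which pools the libraries of a condition and gives bounds but no replicate values. In shCtrl with vehicle, the highest FPKM among the 31 genes was that of Scd2, a desaturase of fatty acids abundant in brain, at 210 with bounds of 156 to 263. Leaving Hmgcs1 aside, Insig1, which retains SCAP, followed with 120 (93 to 147), and Fads2, which starts the desaturation of polyunsaturated fatty acids, with 74.7 (57.1 to 92.3). The lowest were Ebp, the sterol isomerase, at 6.61 (3.90 to 9.33), Acaca, the acetyl-CoA carboxylase, at 8.28 (6.27 to 10.3), Insig2 at 8.43 (5.62 to 11.2) and Mvk, mevalonate kinase, at 9.04 (5.70 to 12.4), whose bounds overlap. Between these ends, Fdft1, Sc5d, Sqle, Srebf2, Cyp51 and Fdps lay between 41.2 and 49.5 with overlapping bounds. The value of Hmgcs1, 156, lies above its own bounds of 61.4 to 97.2, a fault shared by 82 of 23942 rows. Its interval in that table is on chr13_random, bases 114527 to 132436 (mm9), so its level is uncertain. Pairs of genes share an interval in the same table, namely Fdft1 with Ctsb, Lss with 4930483K19Rik, Tm7sf2 with Vps51 and Srebf2, Scd2 and Fads1 with a microRNA gene each, and their levels cannot be told apart there.

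**Figure D1:**
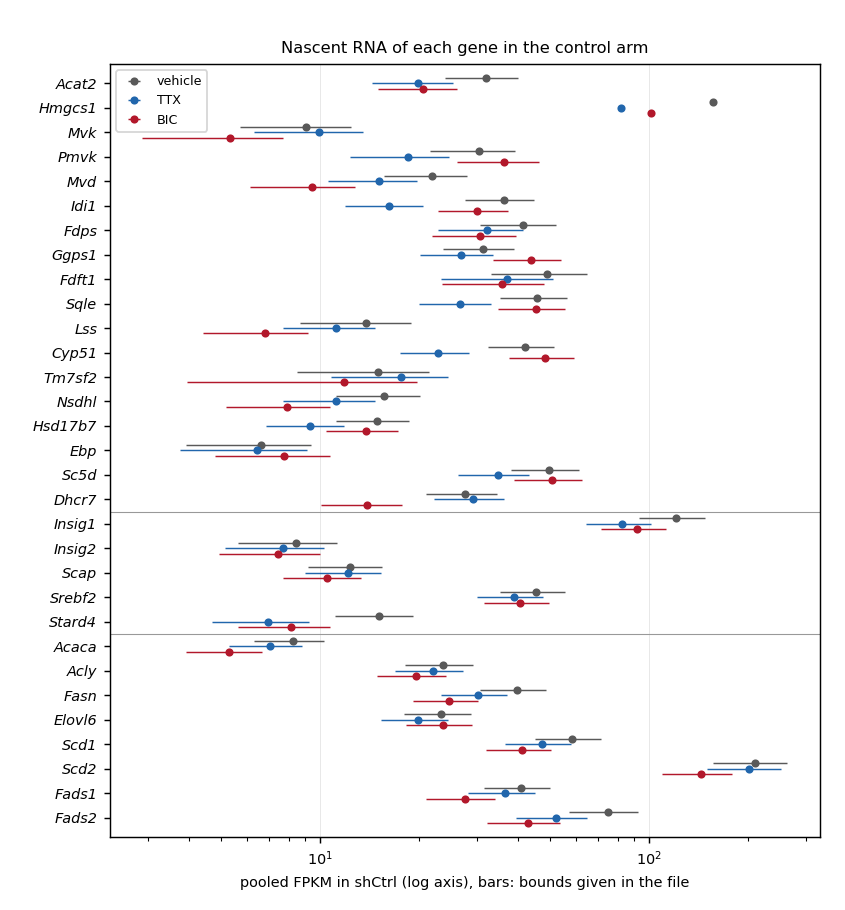
Pooled FPKM of the 31 genes in shCtrl, on a log axis, with vehicle in grey, TTX in blue and BIC in red, and with bars for the bounds that the authors' table gives. Lines separate sterol enzymes, regulators and fatty acid genes. Hmgcs1 is drawn without bars because its values lie outside their bounds. Points of Idi1 and Stard4 under TTX, and of Dhcr7 and Fads2 under BIC, lie below the bounds in vehicle.

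Silencing with TTX lowered transcription of most of the sterol pathway. Comparing TTX with vehicle in shCtrl, the authors' deposited table has 13 of the 18 sterol enzymes lower, none higher and 5 not called, at an adjusted p under 0.05 (DESeq2). Of all genes with an adjusted p in this comparison, 14.9% were lower and 11.8% higher, and 20% of those with a mean normalised count of at least 100 were lower. The median log2 change of the 18 enzymes was -0.57, against -0.02 over all genes with a count of at least 100. In shRai1, again 13 enzymes were lower and none was higher, against 16.8% of all genes lower and 13.7% higher, with 22.7% lower among those with a count of at least 100, and the median of the enzymes was -0.71. The arms share no library, and 12 enzymes were lower in both, while 10.9% of all genes and 14.9% of those with a count of at least 100 were. Markers of cell types were called in the same deposited tables. In shCtrl, 5 of 12 astrocyte markers were lower and none was higher, 4 of 12 oligodendrocyte-lineage markers were lower and 1 was higher, and 4 of 14 neuron markers were lower and 2 higher. In shRai1, astrocyte markers were lower in 1 case and higher in 2, oligodendrocyte-lineage markers were higher in 6 and lower in none, and neuron markers were lower in 4 and higher in 1. No microglia marker was called in either arm, and the part of these markers in the falls was not tested.

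The largest falls were in enzymes from several stages of the pathway. For Cyp51, the lanosterol demethylase, pooled FPKM in shCtrl was 41.7 in vehicle, 22.8 in TTX and 48.2 in BIC. TTX thus stood below the bounds in vehicle of 32.3 to 51.1, and BIC within them. The authors' deposited tables put the TTX change of Cyp51 at -1.43 ± 0.08 in shCtrl (adjusted p = 1.34e-68), which is 62.9% lower, and at -1.27 ± 0.07 in shRai1 (adjusted p = 2.94e-69). Idi1, which interconverts the isoprenoid building blocks, had a pooled FPKM of 36.0 in vehicle, 16.2 in TTX and 30.0 in BIC. Its deposited change was -1.47 ± 0.14 in shCtrl (adjusted p = 1.79e-25) and -1.22 ± 0.12 in shRai1 (adjusted p = 2.93e-22). Hsd17b7, a ketoreductase that acts after lanosterol, had a pooled FPKM of 14.9 in vehicle, 9.31 in TTX and 13.8 in BIC. Its deposited change was -1.11 ± 0.12 in shCtrl (adjusted p = 3.39e-17) and -1.58 ± 0.11 in shRai1 (adjusted p = 5.78e-43). Hmgcs1, the synthase of HMG-CoA at the head of the mevalonate pathway, fell by 1.49 ± 0.10 on the log2 scale in shCtrl (adjusted p = 1.19e-52) and by 1.10 ± 0.08 in shRai1 (adjusted p = 2.84e-36) in the authors' deposited tables. How reads of its copy on chr13_random were counted is not given in the sources used here. By the deposited estimates, transcription of these 4 genes was 53.2% to 66.6% lower in each arm. Pooled FPKM in shCtrl gave smaller falls, with log2 ratios of TTX to vehicle of -0.87 for Cyp51, -1.16 for Idi1 and -0.67 for Hsd17b7. For Hmgcs1, whose level is uncertain, the ratio was -0.93. The size of these falls thus depends on the measure used.

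Smaller falls in both arms, between -0.48 and -0.94 on the log2 scale in the authors' deposited tables, were seen in 8 further enzymes. Sc5d, a sterol desaturase near the end of the pathway, changed by -0.90 ± 0.11 in shCtrl and -0.80 ± 0.09 in shRai1, and Sqle, the squalene epoxidase, by -0.89 ± 0.10 and -0.79 ± 0.09. Pmvk, phosphomevalonate kinase, changed by -0.94 ± 0.13 and -0.72 ± 0.12 in the same tables. Mvd, mevalonate diphosphate decarboxylase, changed by -0.52 ± 0.17 and -0.88 ± 0.15 there. The others were Fdps, farnesyl diphosphate synthase, Lss, lanosterol synthase, Fdft1, squalene synthase, and Acat2, which joins acetyl-CoA units. The adjusted p of these 8 genes was at most 0.00922, that of Mvd in shCtrl. Nsdhl, a sterol dehydrogenase, was lower in shCtrl (-0.36 ± 0.13, adjusted p = 0.0284) and had -0.24 ± 0.12 in shRai1 (adjusted p = 0.107). For Mvk it was the reverse, with -0.10 ± 0.16 in shCtrl (adjusted p = 0.720) and -0.41 ± 0.14 in shRai1 (adjusted p = 0.0186), and for neither gene did the difference between the arms pass its own test (adjusted p = 0.962 and 0.756, Wald test).

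In neither arm was a change under TTX called for Ggps1, Dhcr7, Ebp or Tm7sf2. Ggps1 makes geranylgeranyl diphosphate, which leaves the sterol route for the modification of proteins. Its deposited change in shCtrl was -0.08 ± 0.12, with a 95% interval from -0.31 to 0.15. Dhcr7, which takes the last step to cholesterol in the Kandutsch-Russell branch, had -0.05 ± 0.09 in shCtrl, with an interval from -0.23 to 0.13. The values of Tm7sf2, a sterol reductase, were 0.23 ± 0.20 in shCtrl and 0.41 ± 0.18 in shRai1 (adjusted p = 0.437 and 0.0673). That of Ebp was -0.19 ± 0.18 in shCtrl, with an interval from -0.54 to 0.17, and in all 4 genes the interval excludes falls as large as those of Cyp51, Idi1, Hsd17b7 or Hmgcs1.

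Among regulators, 3 of 5 were lower under TTX in both arms and none was higher, where 10.9% of all genes, and 14.9% of those with a count of at least 100, were lower in both. Stard4, a soluble carrier of sterols, had a pooled FPKM of 15.1 in vehicle, 6.95 in TTX and 8.16 in BIC. Its change in the authors' deposited tables was -1.25 ± 0.16 in shCtrl (adjusted p = 1.42e-13) and -0.95 ± 0.14 in shRai1 (adjusted p = 3.94e-10). Insig1 changed by -0.66 ± 0.09 and -0.68 ± 0.08 (adjusted p = 5.48e-12 and 6.02e-16). Srebf2, which encodes the SREBP factor that mainly drives sterol genes, changed by -0.45 ± 0.08 and -0.58 ± 0.07 (adjusted p = 4.14e-08 and 6.64e-17). Scap and Insig2 were not called, with deposited changes between -0.04 and 0.13.

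Some fatty acid genes were also lower under TTX, by at most 0.50 on the log2 scale. In the authors' deposited table for shCtrl, 6 of 8 were lower, none was higher, and the median was -0.34, where 14.9% of all genes and 20% of those with a count of at least 100 were lower. In that for shRai1, 4 were lower and the median was -0.14, where the shares lower were 16.8% and 22.7%. The medians over genes with a count of at least 100 were -0.02 in each arm. Lower in both arms were the 4 genes that build and lengthen saturated chains. Fasn, the fatty acid synthase, changed by -0.50 ± 0.09 in shCtrl and -0.47 ± 0.08 in shRai1. Elovl6, which lengthens the chain, changed by -0.39 ± 0.08 and -0.49 ± 0.07 in the same tables. Acaca had deposited changes of -0.30 ± 0.08 and -0.25 ± 0.07, and Acly, which supplies cytosolic acetyl-CoA from citrate, -0.30 ± 0.10 and -0.27 ± 0.09. Of the 4 desaturases, Fads2 (-0.40 ± 0.08, adjusted p = 9.43e-06) and Scd1 (-0.38 ± 0.11, adjusted p = 0.00450) were lower in shCtrl in the authors' deposited table and Scd2 and Fads1 were not called, while none of the 4 was called in shRai1.

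Averaged over both arms, 13 enzymes, 3 regulators and 6 fatty acid genes were lower under TTX and 1 enzyme was higher (Wald test), where 17.5% of all genes were lower and 15.5% higher, and 27.5% and 20.7% of those with a count of at least 100. The averaged changes of the enzymes were -1.35 ± 0.05 for Cyp51, -1.35 ± 0.08 for Hsd17b7, -1.34 ± 0.09 for Idi1, -1.30 ± 0.06 for Hmgcs1 and -0.85 ± 0.07 for Sc5d. Those of the regulators were -1.10 ± 0.11 for Stard4, -0.67 ± 0.06 for Insig1 and -0.52 ± 0.05 for Srebf2. Among fatty acid genes, Fasn had -0.49 ± 0.06, Elovl6 -0.44 ± 0.05, Acly -0.29 ± 0.07, Acaca -0.27 ± 0.06 and Scd1 -0.21 ± 0.08. The sixth, Fads2, had -0.15 ± 0.05 (adjusted p = 0.0176), but its arms differed by their own test (-0.40 and 0.10, given below), so this average stands for neither arm. The enzyme that was higher, Tm7sf2, had 0.32 ± 0.13 with an adjusted p of 0.0492, which became 0.0539 when the adjustment ran over all named genes.

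**Figure D2:**
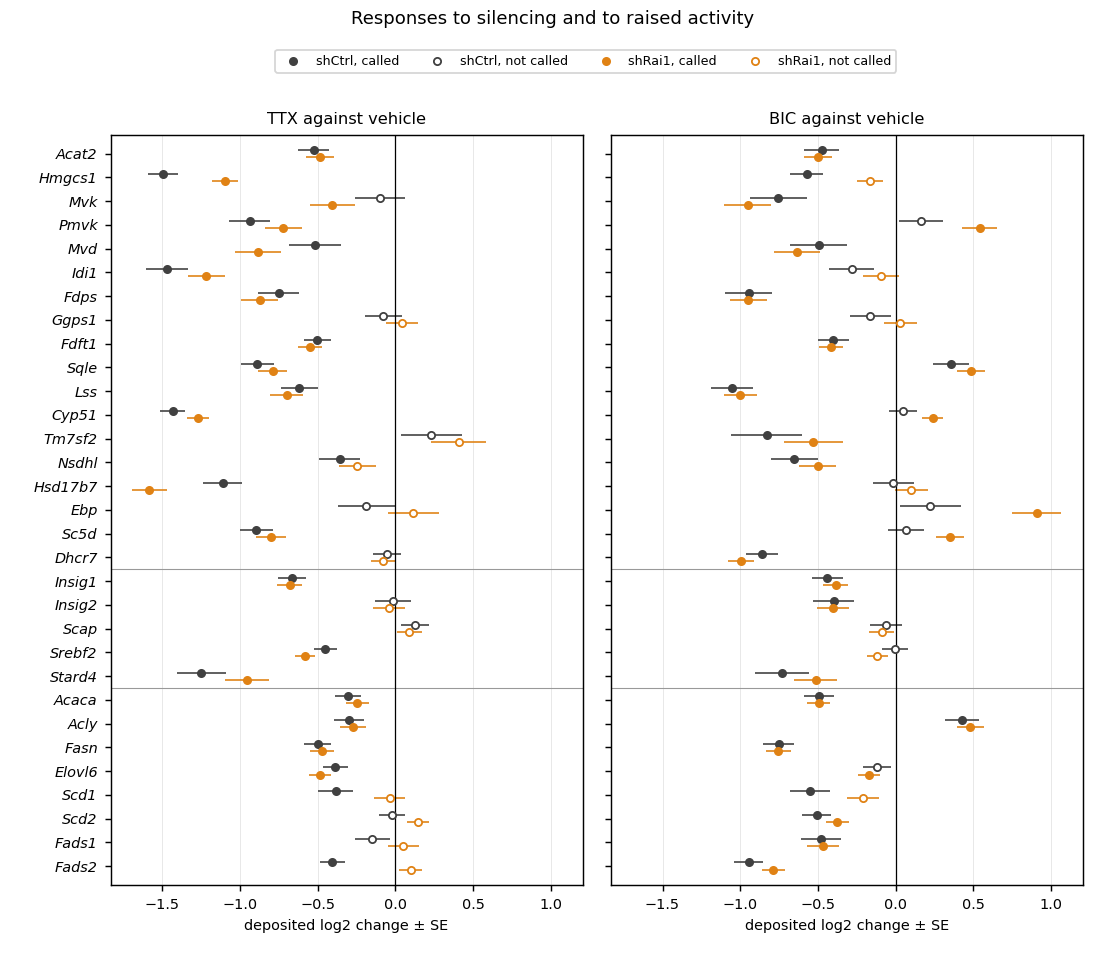
Deposited log2 changes ± SE of the 31 genes for TTX against vehicle (left) and BIC against vehicle (right), in shCtrl (grey) and shRai1 (orange), with filled points for an adjusted p under 0.05. Within an arm both panels share the vehicle libraries. Cyp51, Idi1, Hsd17b7 and Hmgcs1 lie beyond -1 under TTX in both arms, and under BIC all 4 lie closer to 0.

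Raised activity with BIC lowered transcription of many sterol enzymes. In the authors' deposited table for BIC against vehicle in shCtrl, 10 of 18 sterol enzymes were lower and 1 was higher, and their median was -0.44. Of all genes in this comparison, 17% were lower and 17.4% higher, and 23.5% and 23% of those with a count of at least 100. In shRai1, 9 enzymes were lower and 5 higher, with a median of -0.29, against 21.3% lower and 21.3% higher over all genes, and 30.3% and 28.6% over those with a count of at least 100. The share of enzymes higher in shRai1 is therefore near that of other genes of similar count. In both arms, 9 enzymes were lower, where 14.9% of all genes and 21.1% of those with a count of at least 100 were. Within an arm, BIC and TTX are read against the same vehicle libraries. Of the markers, 7 of 14 neuron markers were higher and 6 lower in each arm, and 4 of 12 astrocyte markers were lower and 1 higher in shCtrl, and 2 and 2 in shRai1. Of 12 oligodendrocyte-lineage markers, 2 were lower in shCtrl and 1 in shRai1, and of 10 microglia markers, 2 and 1 were higher; their part was not tested.

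Averaged over the arms, the largest falls of enzymes under BIC were those of Lss, Fdps, Dhcr7 and Mvk. Lss, with the interval it shares, had a pooled FPKM of 13.8 in vehicle, 11.2 in TTX and 6.77 in BIC. Its deposited change under BIC was -1.06 ± 0.14 in shCtrl (adjusted p = 1.46e-13) and -1.0 ± 0.11 in shRai1 (adjusted p = 4.60e-19). Dhcr7, which was not called under TTX, had a pooled FPKM of 27.6 in vehicle, 29.1 in TTX and 13.9 in BIC. Its change under BIC was put at -0.86 ± 0.10 in shCtrl (adjusted p = 4.48e-15) and -1.0 ± 0.08 in shRai1 (adjusted p = 9.15e-32) in the authors' deposited tables. Fdps had deposited changes of -0.95 ± 0.15 and -0.95 ± 0.12, Mvk of -0.76 ± 0.18 and -0.95 ± 0.15, and Tm7sf2 of -0.83 ± 0.23 and -0.53 ± 0.19, each called in both arms. Mvd had -0.50 ± 0.18 and -0.64 ± 0.15, and Nsdhl, Acat2 and Fdft1 were also lower in both arms, by 0.40 to 0.65 on the log2 scale.

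Sqle was higher under BIC in both arms of the authors' deposited tables, by 0.36 ± 0.11 in shCtrl (adjusted p = 0.00655) and 0.49 ± 0.09 in shRai1 (adjusted p = 3.10e-07). Its pooled FPKM did not show this rise, at 45.5 in vehicle and 45.1 in BIC, so its direction under BIC is uncertain. Pmvk, Cyp51, Ebp and Sc5d were higher in shRai1 alone, by 0.54 ± 0.11, 0.24 ± 0.07, 0.91 ± 0.16 and 0.35 ± 0.09 in the authors' deposited table. The difference between arms did not pass its test for any of them (adjusted p of 1 for each, Wald test). Idi1, Hsd17b7 and Ggps1 were called under BIC in neither arm. Hmgcs1 was lower in shCtrl (-0.57 ± 0.11, adjusted p = 6.22e-07) and had -0.17 ± 0.08 in shRai1 (adjusted p = 0.0948).

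Of the regulators, Insig1, Insig2 and Stard4 were lower under BIC in both arms and none was higher, where 14.9% of all genes and 21.1% of those with a count of at least 100 were lower in both. The authors' deposited tables put Insig1 at -0.44 ± 0.10 and -0.39 ± 0.08, Insig2 at -0.40 ± 0.13 and -0.41 ± 0.10 and Stard4 at -0.73 ± 0.17 and -0.52 ± 0.14, in shCtrl and shRai1. Srebf2 had -0.01 ± 0.08 and -0.12 ± 0.07 and Scap -0.06 ± 0.10 and -0.09 ± 0.08, and neither was called.

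Fatty acid genes were lower under BIC in 6 of 8 cases in each arm, with medians of -0.50 in shCtrl and -0.42 in shRai1, and 1 gene was higher. The shares lower were 17% of all genes and 23.5% of those with a count of at least 100 in shCtrl, and 21.3% and 30.3% in shRai1. Fads2 had a pooled FPKM of 74.7 in vehicle, 52.1 in TTX and 42.9 in BIC. Its change under BIC in the authors' deposited tables was -0.95 ± 0.09 in shCtrl (adjusted p = 1.22e-22) and -0.79 ± 0.07 in shRai1 (adjusted p = 5.19e-25). Fasn changed by -0.75 ± 0.10 and -0.75 ± 0.08, with a pooled FPKM of 39.6 in vehicle, 30.0 in TTX and 24.6 in BIC. Acaca, Scd2 and Fads1 were also lower in both arms, by 0.38 to 0.51 in the deposited tables. The sixth gene differed between the arms. In shCtrl it was Scd1, at -0.55 ± 0.13 (adjusted p = 0.000110), which had -0.21 ± 0.10 in shRai1 (adjusted p = 0.0920). In shRai1 it was Elovl6, at -0.17 ± 0.07 (adjusted p = 0.0400), which had -0.12 ± 0.09 in shCtrl (adjusted p = 0.317). The call of Elovl6 was lost when changes were centred on the median gene, both in shRai1 (adjusted p = 0.110) and averaged over the arms (adjusted p = 0.116). Acly was the gene that was higher, by 0.43 ± 0.11 in shCtrl and 0.48 ± 0.09 in shRai1 (adjusted p = 0.000451 and 1.40e-07). Its pooled FPKM went the other way, from 23.6 in vehicle to 19.5 in BIC, so the direction of Acly under BIC is uncertain. Sqle and Acly were the exceptions among the 21 genes called under BIC in shCtrl, since the other 19 had the same sign in both files, as did all 22 called under TTX.

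Averaged over both arms, 10 enzymes, 3 regulators and 7 fatty acid genes were lower under BIC, and 5 enzymes and 1 fatty acid gene were higher (Wald test), where 23.6% of all genes were lower and 22.4% higher, and 34% and 30.6% of those with a count of at least 100. The 5 enzymes include Sqle, whose direction under BIC is uncertain, and their share is not above that of genes with such a count. Lss had -1.03 ± 0.09, Fdps -0.95 ± 0.10, Dhcr7 -0.93 ± 0.07, Mvk -0.85 ± 0.12 and Tm7sf2 -0.68 ± 0.15. The enzymes that were higher were Ebp at 0.56 ± 0.13, Sqle at 0.42 ± 0.07, Pmvk at 0.35 ± 0.09, Sc5d at 0.21 ± 0.07 and Cyp51 at 0.14 ± 0.06. Stard4 had -0.62 ± 0.11, Insig1 -0.41 ± 0.06 and Insig2 -0.40 ± 0.08. Among fatty acid genes, Fads2 had -0.87 ± 0.06, Fasn -0.75 ± 0.06, Acaca -0.49 ± 0.06, Fads1 -0.47 ± 0.08 and Scd2 -0.44 ± 0.06, and Acly had 0.45 ± 0.07. The pooled FPKM of Sqle and Acly did not show these rises, as given above.

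The drugs were then compared with each other without the vehicle libraries, by combining the deposited tables over both arms. BIC and TTX differed at an adjusted p under 0.05 (Wald test) in 25 of the 31 genes, against 57.6% of all genes and 76.5% of those with a count of at least 100, so the share of the genes that differed is near that of other genes of similar count. Sterol enzymes lay on both sides, in shares near those of other genes, of which 38.8% were higher and 37.7% lower in BIC among genes with a count of at least 100. Higher in BIC than in TTX were 8 of 18 sterol enzymes: Cyp51 by 1.49 ± 0.05 on the log2 scale, Hsd17b7 by 1.39 ± 0.08, Sqle by 1.26 ± 0.07, Pmvk by 1.18 ± 0.09, Idi1 by 1.15 ± 0.09, Sc5d by 1.05 ± 0.07, Hmgcs1 by 0.92 ± 0.06 and Ebp by 0.60 ± 0.12. Lower in BIC than in TTX were 5 enzymes: Tm7sf2 by -1.0 ± 0.14, Dhcr7 by -0.86 ± 0.06, Mvk by -0.60 ± 0.11, Lss by -0.37 ± 0.08 and Nsdhl by -0.28 ± 0.09. Thus the enzymes that act on lanosterol and later sterols were found on both sides, with Cyp51, Hsd17b7, Sc5d and Ebp higher in BIC and Tm7sf2, Nsdhl and Dhcr7 higher in TTX. The 95% intervals of the 5 other enzymes were -0.12 to 0.15 for Acat2, -0.09 to 0.36 for Mvd, -0.32 to 0.04 for Fdps, -0.20 to 0.11 for Ggps1 and 0.00 to 0.23 for Fdft1. Pooled FPKM in shCtrl was 19.8 in TTX and 20.5 in BIC for Acat2, 32.0 and 30.5 for Fdps, and 37.0 and 35.6 for Fdft1. It lay further apart for Ggps1, at 26.7 and 43.6, and for Mvd, at 15.1 and 9.44. Whether the drugs differ in Ggps1 and Mvd is thus uncertain. Of the markers, 7 of 14 neuron markers were higher in BIC than in TTX and 6 lower, and 4 of 12 astrocyte markers were higher and 4 lower. Of 12 oligodendrocyte-lineage markers, 3 were lower and none was higher. Of 10 microglia markers, 2 were higher and none was lower, and the part of these markers was not tested.

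Srebf2 was higher in BIC than in TTX by 0.45 ± 0.05, Stard4 by 0.48 ± 0.11 and Insig1 by 0.26 ± 0.06. Their pooled FPKM in shCtrl differed in the same direction, but with overlapping bounds. In TTX and BIC it was 38.7 and 40.5 for Srebf2, 6.95 and 8.16 for Stard4, and 82.7 and 91.8 for Insig1. The size of these differences thus depends on the measure used. Insig2 and Scap were lower in BIC than in TTX, by -0.38 ± 0.08 and -0.18 ± 0.06. All 5 regulators were thus called, as were 76.5% of genes with a count of at least 100. Among fatty acid genes, 5 were lower in BIC than in TTX, from Fads2 at -0.71 ± 0.06, Scd2 at -0.50 ± 0.06 and Fads1 at -0.43 ± 0.08 to Fasn at -0.27 ± 0.06 and Acaca at -0.22 ± 0.06. Elovl6 was higher in BIC at 0.29 ± 0.05, and Scd1 was not called. The shares of this group, 5 lower and 2 higher of 8, stand beside 37.7% and 38.8% of genes with a count of at least 100, and the 2 higher include Acly. Acly was higher at 0.74 ± 0.07 by the comparison tables, but its pooled FPKM in shCtrl was 22 in TTX and 19.5 in BIC, so its direction here is uncertain too. None of the 31 genes differed between the arms in its BIC against TTX contrast (Wald test; 0.181% of all genes and 0.307% of those with a count of at least 100 were called), and 2, Hsd17b7 and Fads2, had an unadjusted p under 0.05, as did 4.6% of all genes.

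**Figure D3:**
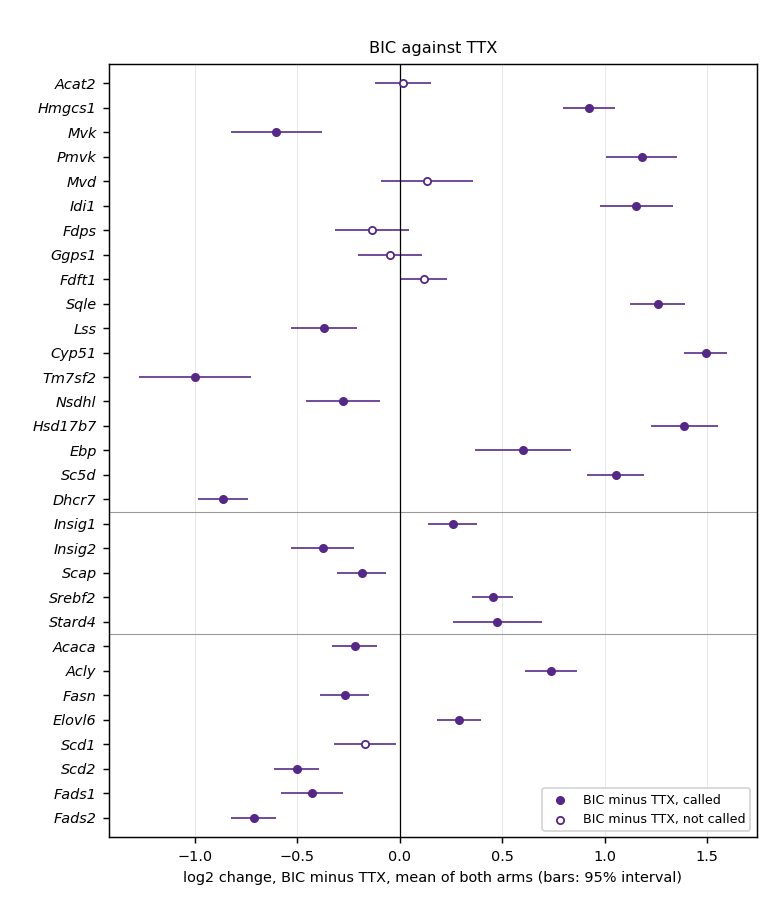
Log2 difference between BIC and TTX, averaged over both arms, with 95% intervals and filled points for an adjusted p under 0.05 over 18241 genes. Values to the right of 0 are higher in BIC. Cyp51 is farthest to the right at 1.49 and Tm7sf2 farthest to the left at -1.0.

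The knockdown of Rai1 left most of these genes without a called change. Rai1 encodes a chromatin-associated protein whose loss causes Smith-Magenis syndrome. In vehicle, 3 of the 31 genes were lower in shRai1 than in shCtrl and none was higher, in the authors' deposited table, against 0.73% of all genes lower and 0.857% in either direction, and 0.891% and 1.06% of those with a count of at least 100. Hmgcs1 was lower by -0.47 ± 0.09 (adjusted p = 0.000872), which is 27.6% lower. Fads2 was lower by -0.38 ± 0.08 (adjusted p = 0.00183) and Scd1, which makes monounsaturated fatty acids, by -0.43 ± 0.11 (adjusted p = 0.0276). The other 28 genes lay between -0.32 (Ebp) and 0.18 (Hsd17b7) in that table.

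In TTX and in BIC, none of the 31 genes was called between the arms in the authors' deposited tables (DESeq2), where 0.0283% and 0.00944% of all genes, and 0.0557% and 0.0186% of those with a count of at least 100, were. An unadjusted p under 0.05 was found for 1 gene in TTX and 3 in BIC, and for 3.3% and 2.93% of all genes. For the genes called in vehicle, the deposited differences between shRai1 and shCtrl were, in TTX and BIC, -0.07 ± 0.09 and -0.06 ± 0.10 for Hmgcs1, -0.09 ± 0.10 and -0.09 ± 0.12 for Scd1, and 0.12 ± 0.07 and -0.23 ± 0.08 for Fads2. Averaged over the 3 treatments, no gene of the 31 was called (Wald test; 0.00548% of all genes and 0.00931% of those with a count of at least 100 were), and 5 had an unadjusted p under 0.05, as did 3.78% of all genes.

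**Figure D4:**
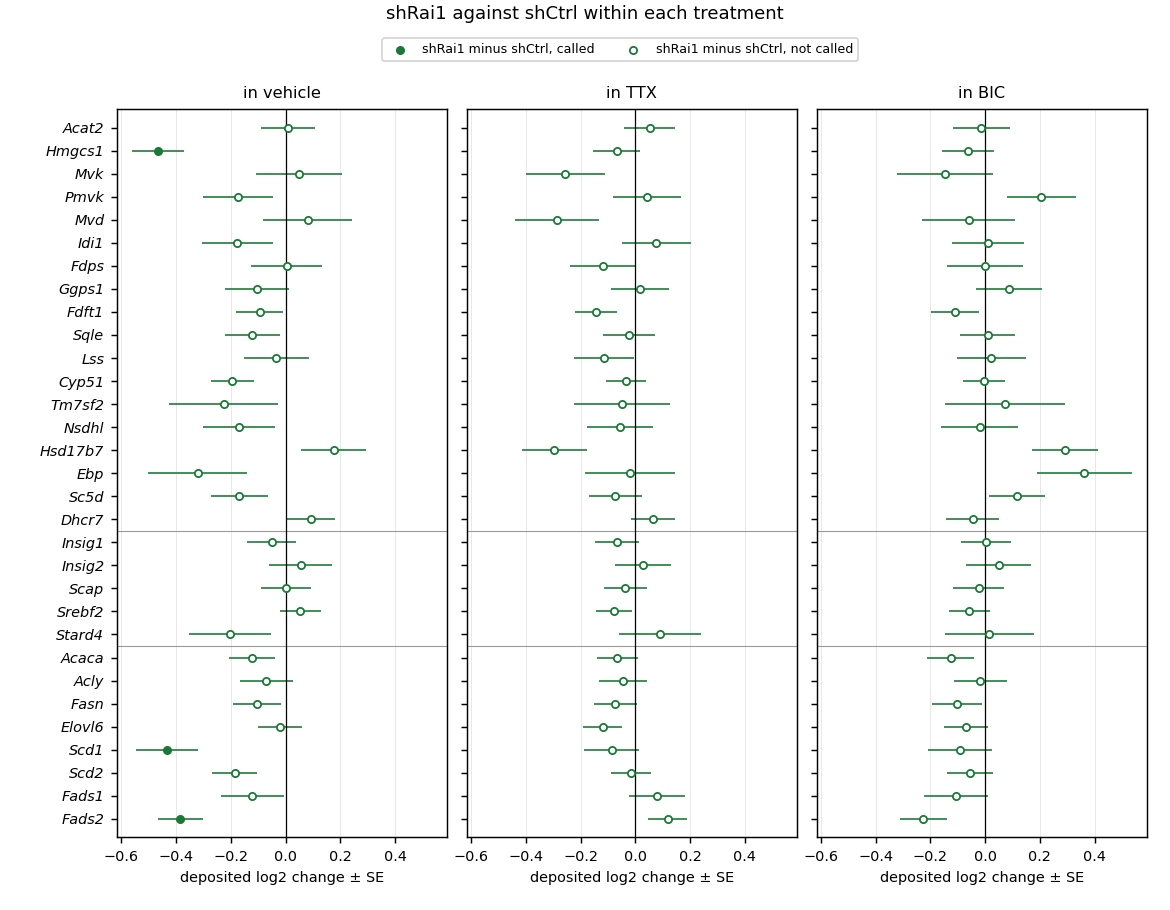
Deposited log2 differences ± SE between shRai1 and shCtrl in vehicle, TTX and BIC, with filled points for an adjusted p under 0.05. The filled points are Hmgcs1 at -0.47, Scd1 at -0.43 and Fads2 at -0.38, all in vehicle.

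Whether the drug responses differed between the arms was tested for each gene. For TTX, Fads2 was the gene called among the 31, against 0.943% of all genes and 1.4% of those with a count of at least 100. Its response was -0.40 ± 0.08 in shCtrl and 0.10 ± 0.07 in shRai1, a difference of 0.50 ± 0.11 (adjusted p = 0.00248, Wald test). For Hmgcs1 the difference was 0.40 ± 0.13 (adjusted p = 0.111), for Hsd17b7 -0.47 ± 0.17 (adjusted p = 0.189) and for Scd1 0.35 ± 0.15 (adjusted p = 0.409). For BIC no gene of the 31 was called (Wald test; 0.0219% of all genes and 0.0372% of those with a count of at least 100 were), and 4 had an unadjusted p under 0.05, namely Hmgcs1, Pmvk, Ebp and Scd1, as did 2.66% of all genes. The shCtrl vehicle libraries enter the difference in vehicle and both drug differences. Markers of the oligodendrocyte lineage also differed between the arms. In vehicle, 4 of 12 were lower in shRai1 (median -0.55) and none was higher. The TTX response of 6 of 12 was higher in shRai1 (median difference 0.60). The BIC against TTX contrast of 3 of 12 was lower in shRai1 and that of none was higher. Pdgfra, the receptor of oligodendrocyte precursors, differed between the arms by -1.37 ± 0.13 in vehicle and 0.50 ± 0.11 in TTX in the authors' deposited tables. In BIC it differed by -0.90 ± 0.13 and was the 1 marker of the 12 called there, where none of the 31 genes was. Of all genes, 0.73% were lower in vehicle and 0.943% had a TTX response called different between the arms. The BIC against TTX contrast was called different for 0.181% of them. Of 12 astrocyte markers, 2 were called lower in vehicle, and 11 had a negative difference (median -0.21). The TTX response of 1 of them, Glul, was higher in shRai1, by 0.40 ± 0.10 (adjusted p = 0.0227, Wald test). Of 14 neuron markers, Rbfox3 was higher in vehicle, by 0.24 ± 0.07 (adjusted p = 0.0494, DESeq2), and its TTX response was lower in shRai1, by -0.40 ± 0.09 (adjusted p = 0.00485, Wald test). No microglia marker was called in the vehicle difference or the TTX response. The part of these markers in the values of Fads2, Scd1 and Hmgcs1 was not tested.

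Further genes of the pathway, from lists set beside the 31, moved as follows. Of 7 other genes of sterol synthesis and storage, 4 were lower under TTX averaged over the arms and none was higher, where 27.5% of genes with a count of at least 100 were lower and 20.7% higher. Msmo1, the sterol methyl oxidase that works with Nsdhl and Hsd17b7, was among them at -1.06 ± 0.06 (adjusted p = 5.29e-64, Wald test). Under averaged BIC, 3 of the 7 were higher and 2 lower, where 30.6% of genes with a count of at least 100 were higher and 34% lower. Msmo1 was 1.21 ± 0.06 higher in BIC than in TTX, and Soat1, which esterifies cholesterol for storage, had an averaged BIC response of 0.56 ± 0.06. Of 7 other genes of SREBP processing, 2 were higher and none lower under averaged TTX, and 1 was higher and 2 lower under averaged BIC, beside the same shares. Mbtps1, the protease that first cuts SREBP in the Golgi, was higher under TTX (0.37 ± 0.06) and lower under BIC (-0.55 ± 0.06). Srebf1, which encodes the SREBP factors that mainly drive fatty acid genes, had an averaged BIC response of -0.41 ± 0.07. Erlin1, of the endoplasmic reticulum, was higher under both, by 0.25 ± 0.08 under TTX and 0.62 ± 0.08 under BIC.

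Of 10 genes of sterol efflux and LXR response, 7 were lower under BIC in each arm and none was higher, where 23.5% of genes with a count of at least 100 were lower in shCtrl and 30.3% in shRai1. Averaged over the arms, Abcg1, an exporter of sterols, was at -0.79 ± 0.08 and Mylip, which degrades lipoprotein receptors, at -0.75 ± 0.08. Under averaged TTX, 4 of the 10 were higher and 1 was lower, where 20.7% of genes with a count of at least 100 were higher and 27.5% lower. Of 25 other genes of fatty acid synthesis and activation, 10 were lower and 4 higher under averaged TTX, and 9 were lower and 7 higher under averaged BIC. Of genes with a count of at least 100, 27.5% were lower and 20.7% higher under averaged TTX and 34% and 30.6% under averaged BIC, so the BIC counts of this list are near those of other genes. Hsd17b12, a reductase of chain elongation, went from -2.03 ± 0.07 under TTX to 1.5 ± 0.07 under BIC, and Acsl4, which activates polyunsaturated fatty acids, from -0.68 ± 0.06 to 1.48 ± 0.06. Acss2 was among the genes lower under averaged BIC, at -0.91 ± 0.10, and Acsl1 among those lower under averaged TTX, at -0.71 ± 0.05. Of 12 genes of fatty acid oxidation, none was lower and 2 were higher under averaged TTX, and 5 were lower and none higher under averaged BIC, against the same shares. Between the arms in vehicle, 1 gene of these 5 lists was called, where 0.857% of all genes and 1.06% of those with a count of at least 100 were. It was Abca1, a sterol exporter, at -0.33 ± 0.07 (adjusted p = 0.00380, DESeq2) in the authors' deposited table. The TTX response of Abca1 was also higher in shRai1, by 0.46 ± 0.10 (adjusted p = 0.00190, Wald test), and its BIC against TTX contrast lower, by -0.40 ± 0.10 (adjusted p = 0.0334, Wald test).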

How the data were processed

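Bru-seq libraries of 16 cultures in 6 groups were used, with reads of 50 bases. The 12 ChIP-seq samples of the series were not analysed here. Per the submitters' processing notes, reads were handled with TopHat2 2.1.0, Bowtie2 2.2.6 and DESeq2 on mm9. The authors deposited 7 comparison tables, whose values per the file headers are a mean normalised count (signal), a log2 fold change with its standard error, a Wald statistic (score) and a p-value, raw and adjusted. They also deposited a table of FPKM with bounds, pooled over the libraries of a condition. No values per library were used, so depth per library is not given here, and the precision is that of the authors' standard errors.

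The 31 genes and all gene lists were chosen with earlier results of these data known. The vehicle knockdown table names no genes: 20107 of its rows were named by a mean normalised count that occurs once in the other tables, and all members were among them. Columns of FPKM for shRai1 did not follow the comparison tables by their names (across 10757 genes, the ratio named for TTX correlated at 0.786 with the deposited BIC change), so only shCtrl levels are given. Contrasts averaged over arms, between drugs or between arms were computed from deposited log2 values, with standard errors from comparisons that share no library. Between drugs, the log2 value was the BIC change minus the TTX change, in which the shared vehicle libraries cancel. Two-sided Wald tests were used, with Benjamini-Hochberg adjustment over the 18241 genes whose mean FPKM was 0.1 or more, after tests on simulated data. Adjusted p-values of the 7 deposited comparisons are the authors'. Genes were called at an adjusted p under 0.05, and values are given, per comparison and group, for up to 5 called members with the largest changes in each direction, and for Srebf2, Scap, Insig1, Insig2 and Fasn. Other members are named where a group is small, or where calls differ between arms or files, which was chosen after their values were seen. Promoters came from RefSeq (GRCm38.p6), coordinates of levels from the deposited table (mm9). Python 3.11.15, numpy 2.4.6, pandas 2.3.3, scipy 1.17.1 and matplotlib 3.10.9 were used. Alternatives were another threshold, a minimum change, centring on the median gene, other gene filters and other motif rules.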

Additional observations from a re-analysis of the deposited data

Results flagged for a closer look

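Fads2 was the gene among the 31 whose drug response differed between the arms by its own test. Its TTX response was higher in shRai1 than in shCtrl by 0.50 ± 0.11 on the log2 scale (95% interval 0.29 to 0.72, adjusted p = 0.00248, Wald test). The shCtrl response was -0.40 and the shRai1 response 0.10, in the authors' deposited tables. The same shCtrl vehicle libraries enter the difference in vehicle, where Fads2 was lower in shRai1 by -0.38 ± 0.08, so the results are not independent. Markers of the oligodendrocyte lineage also differed between the arms in their TTX response, and their part was not tested.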

How the results depend on the processing

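Called members stayed within 1.5 times their number in each comparison under centring, thresholds of 0.01 and 0.1, and other gene filters, and no direction reversed. Requiring a change of at least 0.5 on the log2 scale lowered the number called from 21 to 12 for BIC in shCtrl, 24 to 13 for BIC in shRai1, 3 to 0 for the knockdown in vehicle, 23 to 15 for averaged TTX, 26 to 11 for averaged BIC and 25 to 14 for BIC against TTX, since smaller changes then do not count. For TTX it fell from 22 to 15 in shCtrl and from 20 to 14 in shRai1. Fatty acid genes called lower under TTX fell from 6 to 1 in shCtrl, 4 to 0 in shRai1 and 6 to 0 averaged over the arms. Allowing 1 mismatch in the sterol response element raised the number of members with a match from 1 to 10. No paired analysis was possible because the deposited tables hold no values per library, and leaving out each library in turn was not run for the same reason.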
